A study of Homo sapiens with 4 samples.

Results

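Messages for 6 chemokines, CXCL1, CXCL2, CXCL3, CXCL8, CCL2 and CCL20, were followed from total RNA into RNA immunoprecipitated with NSUN2 in PANC-1 cells. They are 6 of the 24483 genes in the deposited gene table, and were picked by name because earlier results of these data showed low values in the immunoprecipitate (IP). Their IP over input values therefore describe the choice and support nothing. Not all of these messages were absent from the IP: CXCL8 had 0 reads in both IP libraries and CCL20 1 in each, but CCL2 had 316 and 336, CXCL1 had 14 and 18, and CXCL2 had 1 and 7. CXCL3 had 0 in both IP libraries, but only 2 and 6 reads in the vehicle and lactate inputs, near the limit of counting.

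PANC-1 is an established human pancreatic ductal adenocarcinoma line, labelled wild-type, and a single line is all that was studied. All cells grew with serum and received for 24 h either 30 mM sodium lactate (the lactate groups) or double-distilled water (the vehicle groups). From each treatment there was an input library, of RNA taken before immunoprecipitation, and an IP library, of RNA bound after 4 h to an antibody against NSUN2, an enzyme that writes 5-methylcytosine on RNA. The 4 groups (vehicle input, vehicle IP, lactate input, lactate IP) held 1 library each, so differences below were not checked by replication, genes were not tested, and intervals cover counting error only. A library with a control antibody was not analysed here, so that binding by NSUN2 and RNA carried along without it cannot be told apart.

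Chemokines are small secreted proteins that bind receptors coupled to G proteins and direct the movement of leukocytes. CXCL1, CXCL2, CXCL3 and CXCL8 belong to the CXC subfamily that carries a glutamate-leucine-arginine (ELR) motif, act on CXCR2 (CXCL8 also on CXCR1) and attract neutrophils. CCL2 acts on CCR2 and attracts monocytes, and CCL20 acts on CCR6 and attracts dendritic cells and lymphocytes. Their genes are textbook targets of the transcription factor NF-κB, and their messages are short-lived, with AU-rich elements that recruit decay factors. Pancreatic cancer cells are known to secrete several of them.

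Position and promoter sequence were not used to choose the members, and 4 of the 6 lie in 1 chromosome block. These 4 all belong to the ELR subfamily, so their shared place goes with the choice by name and is description only. In GRCh38, CXCL8 (chr4:73740569-73743716), CXCL1 (chr4:73869393-73871308), CXCL3 (chr4:74036589-74038689) and CXCL2 (chr4:74097040-74099195) lie within 358627 bp of chromosome 4, while CCL2 lies at chr17:34255285-34257203 and CCL20 at chr2:227813842-227817556. RefSeq places 17 genes in the block from CXCL8 to CXCL2, of which 6 were in the deposited table, the 4 members, CXCL5 and the pseudogene PPBPP2. CXCL5, another ELR chemokine, had 5 and 3 reads in the vehicle and lactate inputs and 0 in both IP libraries. Promoters of 5 members, from 250 bases before to 50 after the start of the gene, were in the RefSeq table of GRCh38.p14; CCL2 was not. The stretches from 100 to 11 bases before the start are shown because each holds letters of GGAATTTCC or of the kappaB consensus, motifs bound by NF-κB, in capitals with any TATAAA, each on the strand of its gene.
CXCL1: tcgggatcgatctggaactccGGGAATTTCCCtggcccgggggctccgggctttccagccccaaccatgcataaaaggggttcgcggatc
CXCL2: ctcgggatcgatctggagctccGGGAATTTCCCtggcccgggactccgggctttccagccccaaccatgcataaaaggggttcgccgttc
CXCL3: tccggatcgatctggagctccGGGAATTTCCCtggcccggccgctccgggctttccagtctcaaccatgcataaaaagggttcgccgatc
CXCL8: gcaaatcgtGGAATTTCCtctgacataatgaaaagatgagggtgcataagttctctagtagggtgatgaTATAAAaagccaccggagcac
CCL20: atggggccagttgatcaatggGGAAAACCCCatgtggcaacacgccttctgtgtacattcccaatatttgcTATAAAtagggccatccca

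Those stretches lie at chr4:73869293-73869382 for CXCL1 (plus strand), chr4:74099206-74099295 for CXCL2 (minus), chr4:74038700-74038789 for CXCL3 (minus), chr4:73740469-73740558 for CXCL8 (plus) and chr2:227813742-227813831 for CCL20 (plus). The letters GGAATTTCC, searched on both strands, occurred in 4 of the 5 promoters, starting 78 bases before the gene in CXCL1 and CXCL3, 77 in CXCL2 and 91 in CXCL8. Of all 35116 promoters in the table, 162 (0.461%) held them. These genes were known NF-κB targets before the search, and the promoters of CXCL1, CXCL2 and CXCL3 are alike, as given below. The 4 are therefore not independent, and the counts of this motif and of the kappaB consensus are description only. The looser kappaB consensus, which overlaps these letters in CXCL1, CXCL2 and CXCL3, occurred in those promoters and, on the opposite strand, in CCL20, against 11.3% of all promoters. CXCL8 did not hold the consensus and CCL20 did not hold GGAATTTCC, so neither motif was in all 5. TATAAA occurred in CXCL8 and CCL20 (11.5% of all), and TGANTCA, the AP-1 motif, in CXCL8 alone of the 5 (7.71% of all). The 250 bases before the start were 81.4% identical between CXCL1 and CXCL3, 73.3% between CXCL2 and CXCL3 and 68.0% between CXCL1 and CXCL2. CXCL8 reached at most 48.2% with any of the other 4. CXCL1, CXCL2 and CXCL3 are close paralogs, and how the authors counted reads that match more than 1 of them has no stated source here, so the split of reads among these 3 is uncertain.

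Library totals, recovered from the deposited values, ranged from 11175432 to 17626197 reads. Genes not encoded by mitochondria held 31.3% of reads in the input and 30.3% in the IP of vehicle cells, and 20.9% and 13.9% in lactate cells. The deposited unit, FPKM, counts fragments relative to gene length and to the whole library, mitochondrial fragments included, so FPKM of nuclear genes depends on that share. Summed over all 6 chemokines, vehicle cells gave 1251 reads in the input and 332 in the IP, and lactate cells 716 and 362. The recovered length of CXCL1, 681 bp, is short beside its RefSeq span of 1916 bp. Any factor common to its length and reads is lost in the recovery, and its reads may be understated and its intervals too wide.

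CCL2 was by far the most abundant of the 6 per length, with FPKM 27.6 in the vehicle input (95% counting interval 25.9 to 29.4) and 23.2 in the lactate input (21.2 to 25.3). It held 70.6% of the summed FPKM of the 6 in the vehicle input and stood above 96.8% of detected protein-coding genes there. CXCL1 (4.17, interval 3.09 to 5.49), CXCL8 (3.31, 2.80 to 3.88) and CCL20 (2.85, 2.26 to 3.54) followed with intervals that overlap from each to the next. CXCL2 came next at 1.10 (0.722 to 1.59), and CXCL3 last at 0.0511 on 2 reads. In the lactate input the order was CCL2, CXCL8 (4.53), CXCL1 (3.02), CCL20 (2.13), CXCL2 (1.09) and CXCL3 (0.242, 6 reads), where the intervals of CXCL8 and CXCL1 overlapped, as did those of CXCL1 and CCL20 and those of CCL20 and CXCL2. CCL2 thus stood alone at the top and CXCL3 alone at the bottom in both inputs, and the members between them were separated only in part.

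**Figure D1:**
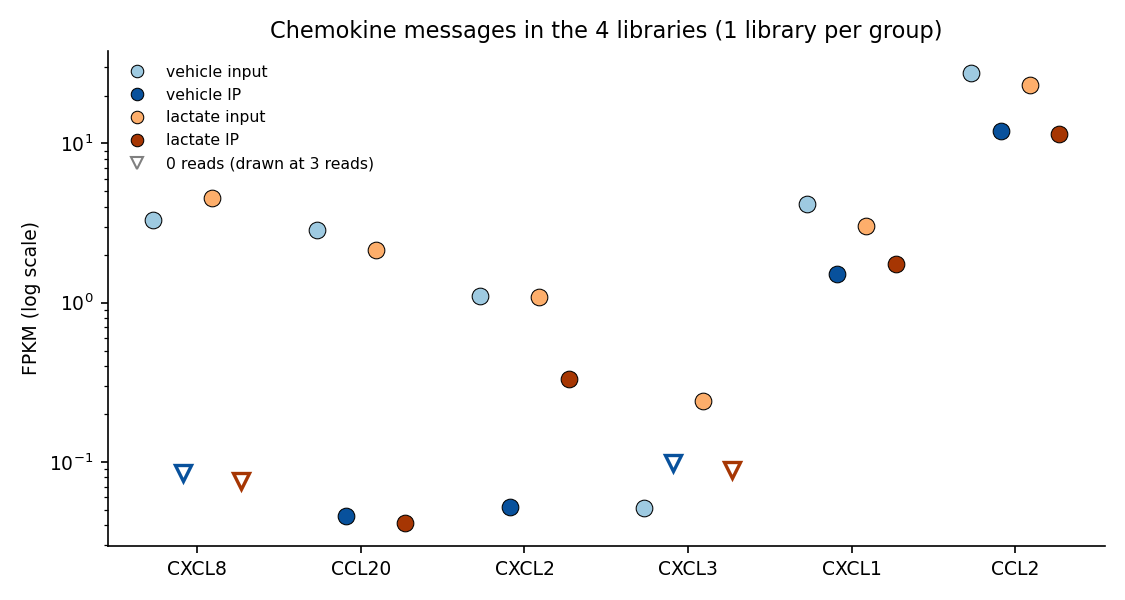
FPKM of each chemokine message (log axis) in input and IP of vehicle and of lactate cells, 1 point per library, with open triangles for libraries with 0 reads drawn at the FPKM that 3 reads would give. CXCL8 has a point in both inputs (3.31 and 4.53) and a triangle in both IP libraries, while CCL2 has an FPKM of 11.4 or more in all 4.

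CXCL8, the neutrophil attractant interleukin-8, had FPKM 3.31 in input RNA and 0 in IP RNA of vehicle cells (151 and 0 reads), and 4.53 and 0 in lactate cells (131 and 0 reads). It was thus measured in both inputs and in neither IP library. With no read, up to 3 remain possible in a library, or FPKM 0.0851 in the vehicle IP and 0.0763 in the lactate IP. Against 3 reads, with the input taken as counted, CXCL8 was at least 38.9-fold lower in the IP than in the input of vehicle cells and at least 59.4-fold lower in lactate cells. The exact 95% counting interval, which also covers the input, begins at 31.2-fold and 47.6-fold. Of 3443 protein-coding genes with at least 100 reads in each input, CXCL8 was the only one (0.029%) with 0 reads in both IP libraries. With the minimum set at 20 reads in each input, 2 of 7291 genes (0.0274%) had 0 reads in both, CXCL8 and C7orf57 (36 and 26 input reads).

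CCL20, the ligand of CCR6, had FPKM 2.85 in input RNA and 0.0461 in IP RNA of vehicle cells (80 and 1 reads), and 2.13 and 0.0413 in lactate cells (38 and 1 reads). Both IP libraries lay far below both inputs, each on a single read. The input was 61.8-fold higher than the IP in vehicle cells, with a counting interval of 10.8 to 2472, and 51.7-fold higher in lactate cells (8.73 to 2093). Genes with at most 1 read in each IP library numbered 5 of 7291 (0.0686%) at the minimum of 20 input reads. Besides CXCL8 and CCL20 these were C7orf57, ZNF367 (38 and 24 input reads) and RNFT1 (57 and 34 input reads).

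CXCL2, a close paralog of CXCL1, had FPKM 1.10 in input RNA and 0.0525 in IP RNA of vehicle cells (27 and 1 reads), and 1.09 and 0.330 in lactate cells (17 and 7 reads). The inputs were level and both IP libraries lower. Its input exceeded its IP 20.9-fold in vehicle cells (3.44 to 854) and 3.30-fold in lactate cells (1.30 to 9.42). In vehicle cells alone, 47 of 8991 protein-coding genes with at least 20 input reads (0.523%) had at most 1 IP read, CXCL2, CXCL8 and CCL20 among them, and in lactate cells 28 of 7338 (0.382%), CXCL8 and CCL20 among them. CXCL3, the third of these paralogs, had 2 input and 0 IP reads in vehicle cells and 6 and 0 in lactate cells. That gives no ratio in vehicle cells. Against 3 reads, CXCL3 was at least 2.72-fold lower in the IP than in the input of lactate cells. The exact counting interval of input over IP excluded 1 there. The separate intervals of its lactate input (FPKM 0.0888 to 0.527) and lactate IP (up to 0.109) nevertheless overlapped. Both of its inputs lie near the limit of counting, and it entered no comparison under the minimum of FPKM 1.

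CXCL1, the ELR chemokine first known as GRO-alpha, had reads in both IP libraries. It had FPKM 4.17 in input RNA and 1.51 in IP RNA of vehicle cells (50 and 14 reads), and 3.02 and 1.74 in lactate cells (23 and 18 reads). Both IP libraries lay below both inputs. The input was 2.76-fold higher than the IP in vehicle cells (interval 1.5 to 5.41). In lactate cells it was 1.74-fold higher with an interval that includes 1 (0.897 to 3.42), so a difference was not detectable on the recovered reads. Those reads may be understated, as said above, and this interval too wide.

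CCL2, the monocyte attractant MCP-1, carried most reads of the 6 members in the IP libraries. It had FPKM 27.6 in input RNA and 12.0 in IP RNA of vehicle cells (941 and 316 reads), and 23.2 and 11.4 in lactate cells (501 and 336 reads). Both IP libraries were lower than both inputs, by 2.30-fold in vehicle cells (2.02 to 2.62) and 2.03-fold in lactate cells (1.76 to 2.33). CCL2 made up 88.2% of the summed FPKM of the 6 in the vehicle IP and 84.4% in the lactate IP, against 70.6% and 67.8% in the inputs.

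**Figure D2:**
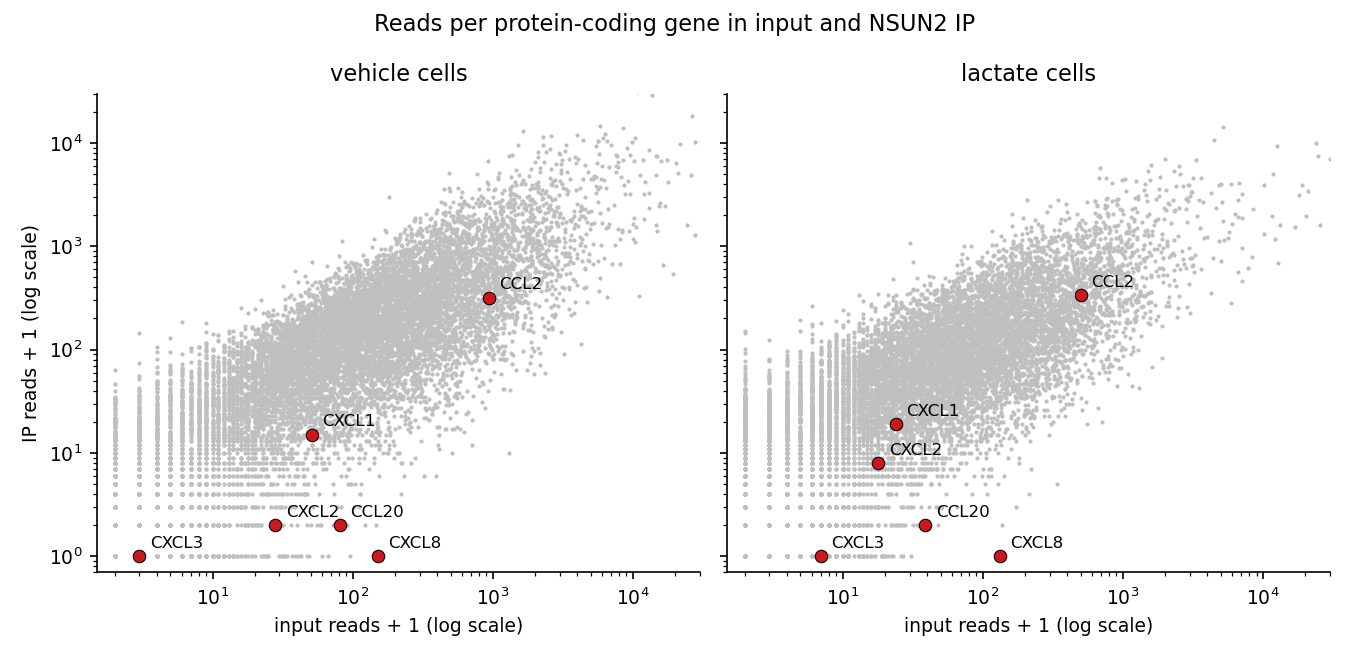
Reads per protein-coding gene in the input (horizontal, reads + 1, log axis) and in the IP (vertical, reads + 1, log axis), for vehicle cells on the left and lactate cells on the right, with the 6 chemokines in red. CXCL8 lies on the floor of both panels at 151 and 131 input reads and CCL20 1 read above it, whereas CCL2 and CXCL1 lie inside the cloud of other genes.

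On the scale used across all genes, the log2 ratio of FPKM + 1, 5 of the 6 members passed the minimum of FPKM 1 in at least 1 compared library, CXCL8, CCL20 and CXCL2 through their inputs alone. In vehicle cells 4 members were at least 2-fold lower in the IP (CXCL8 −2.11, CCL20 −1.88, CCL2 −1.14, CXCL1 −1.04) and CXCL2 lay at −0.99. Of all 9099 genes, 15.3% were at least 2-fold lower and the median was 0.44. In lactate cells 2 members were at least 2-fold lower (CXCL8 −2.47 and CCL20 −1.59), against 23.3% of 7170 genes with a median of −0.10. CCL2 stood there at −0.96, CXCL2 at −0.65 and CXCL1 at −0.55. The median of all 6 members was −1.09 in vehicle and −0.81 in lactate cells. All 6 were below 0 in both conditions, also with libraries scaled by median ratios or to equal totals of genes not encoded by mitochondria. With equal totals the lactate values of CCL2 and CXCL1 shrank to −0.41 and −0.16. These contrasts chose the members, so nothing is read from the shares.

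The added 1 in this scale pulls the ratios of low genes towards 0. Ranked by the plain ratio of IP to input among 8991 protein-coding genes with at least 20 vehicle input reads, CXCL8 was 1 of 24 genes at 0, the lowest place, and 0.367% of genes lay under CCL20 and 1.07% under CXCL2. For CXCL1 and CCL2 these shares were 15.1% and 18.2%. Among 7338 genes in lactate cells they were 0.300% for CCL20, 38.6% for CXCL1 and 33.1% for CCL2, and CXCL8 was 1 of 7 genes at 0. These ranks use the values that chose the members, so they describe the choice and nothing is read from them.

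All 5 members that passed the minimum lay in the shortest of 4 equal length classes of protein-coding genes (133 to 3098 bp in the vehicle comparison). That class had a median log2 ratio of 0.31 and 19.1% of genes at least 2-fold lower in vehicle cells, against 0.53 and 8.53% in the longest class. In lactate cells the medians from the shortest to the longest class were −0.14, −0.19, −0.16 and 0.03, with 25.3%, 26.0%, 23.0% and 15.2% lower, which is no steady trend. The part of length in the chemokine values was not tested.

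Lactate against vehicle input compares the levels of the messages after treatment. On FPKM as deposited, CXCL8 was the 1 member whose level was higher in the lactate input beyond counting error, at 1.37 times the vehicle level (interval 1.07 to 1.74). CCL2 was 0.840 times (0.752 to 0.937), a direction that turns with the scaling, as given next. CXCL1 (0.726 times, 0.423 to 1.21), CCL20 (0.749, 0.495 to 1.12), CXCL2 (0.993, 0.508 to 1.89) and CXCL3 (4.73, 0.846 to 47.9) had intervals that include 1. On the log2 scale of FPKM + 1, 0 of the 6 passed 2-fold in either direction, against 6.46% of 6766 genes lower and 1.76% higher.

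The median gene of the inputs stood at −0.43, and all 6 chemokines lay above it, CXCL1 by 0.07. CXCL3 was under the minimum that defines this median. With pseudocount 5, 1 of the 6 lay below the median gene, and with no filter on low values 3 did. The CXCL8 log2 ratio was 0.36 as deposited, 0.83 with median ratios and 0.81 with equal non-mitochondrial totals. The lower values of CCL2 (−0.24), CXCL1 (−0.36), CCL20 (−0.30) and CXCL2 (−0.01) turned positive under both of these scalings, for CCL2 to 0.33 and 0.31. A direction for these 4 therefore rests on the scaling. In RNA pooled over many cells, fewer cells making a message and less message per cell cannot be told apart.

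**Figure D3:**
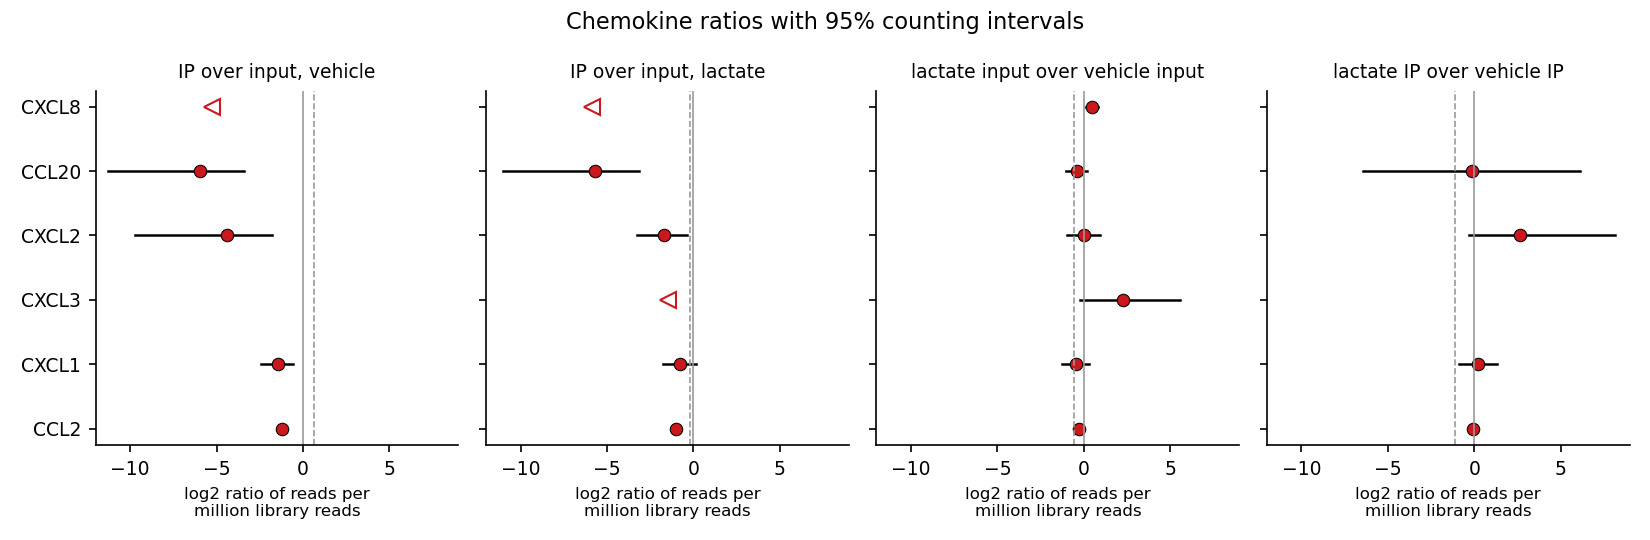
Log2 ratios of reads as a share of the library total for each chemokine in 4 comparisons, with points for ratios, bars for 95% exact counting intervals and open triangles at the value 3 reads would give where the IP library had 0 and the input more than 3. CXCL3 has no mark in the vehicle IP over input panel, and CXCL3 and CXCL8 have none between the IP libraries. The solid line marks 0 and the dashed line the median gene with reads in both libraries (0.62, −0.17, −0.59 and −1.10 from left to right); in both IP over input panels CXCL8, CCL20 and CXCL2 lie left of both lines, and in the lactate over vehicle panels all intervals but those of CXCL8 and CCL2 in the inputs include 0.

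Between the IP libraries, lactate against vehicle, CCL2 was nearly level at 0.953 times (interval 0.815 to 1.12), and CXCL1 was at 1.15 times (0.542 to 2.50). CXCL2 went from 1 to 7 reads, 6.28 times with an interval of 0.806 to 283. CCL20 had 1 read in each, and CXCL3 and CXCL8 had 0 in both. Only CXCL1 (log2 ratio 0.13) and CCL2 (−0.06) passed the minimum, and neither passed 2-fold, against 27.7% of 8366 genes lower and 1.64% higher with a median of −0.74. Relative to that median they stood at 0.87 and 0.68. With median ratios CXCL1 moved to 0.82 and CCL2 to 0.97, so the near-level value of CCL2 holds for FPKM as deposited.

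The log2 IP over input value of lactate cells less the value of vehicle cells was 0.49 for CXCL1, 0.34 for CXCL2, 0.29 for CCL20, 0.18 for CCL2, −0.24 for CXCL3 and −0.36 for CXCL8. None was past 2-fold, against 9.56% of 9445 genes lower and 3.04% higher with a median of −0.36. The negative values of CXCL8 and CXCL3 mirror their inputs, since both had 0 reads in both IP libraries. On plain reads the interval included 0 for CXCL1 (−0.57 to 1.90), CXCL2 (−0.49 to 5.81), CCL2 (−0.09 to 0.45) and CCL20 (−3.78 to 4.30). CCL20 turned to −0.09 with median ratios and −0.07 with equal non-mitochondrial totals. With median ratios CCL2 moved to 0.64, CXCL1 to 0.71 and CXCL8 to −0.83, and the median gene to 0.02.

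The authors called peaks in each IP library over the matching input, and their lists held 95785 peaks for vehicle and 48104 for lactate cells. Only 2 peaks, both in the vehicle list and both named for CCL20, belonged to a member. They lay at chr2:227810447-227810695 (249 bp, fold enrichment 3.03, q 0.140) and chr2:227811477-227811826 (350 bp, fold 2.43, q 0.816), and the authors placed both in an intron of a CCL20 transcript. In RefSeq both lie before the CCL20 gene, ending 3147 and 2016 bp before its start, so neither covers the RefSeq message. The authors' deposited table comparing the IP libraries gave the first and the second normalized read densities of 3.67 and 3.07 in the vehicle IP against 0.477 and 0.976 in the lactate IP. In that comparison, whose test is not stated here, neither difference reached a P value of 0.05. Both peaks were called in vehicle cells alone, so a lower lactate density goes with their choice. No peak of either list overlapped the RefSeq span of any of the 6 genes, and the closest lactate peak to a member lay 10629 bp from CXCL2.

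A gene without a peak was not rare. Of 5512 protein-coding genes with FPKM of at least 1 in the vehicle input, 12.6% had no vehicle peak, and of the 1091 among them that were at least 2-fold lower in the IP, 32.1%. In lactate cells these shares were 26.5% of 4584 and 45.4% of 1319. For CCL2 the background is smaller, since 6.75% of 2698 genes with at least its 316 vehicle IP reads had no vehicle peak, and 11.6% of 1351 with at least its 336 lactate IP reads had no lactate peak.

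The other chemokine genes were scarce in these cells. Of 20 CC chemokines looked for, 7 were in the table, and besides CCL2 and CCL20 only CCL5 passed the minimum. CCL5, a T cell attractant, had FPKM 1.32 in input RNA and 0.588 in IP RNA of vehicle cells (35 and 12 reads), and 1.55 and 1.32 in lactate cells (26 and 30 reads). Its log2 IP over input was −0.55 in vehicle and −0.14 in lactate cells. CCL28, a mucosal chemokine under the minimum, had 72 and 24 reads in the inputs and 16 and 5 in the IP libraries. CCL7, a close relative of CCL2, had 10 reads in the vehicle input and 0 in the other 3 libraries.

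Not every chemokine message had a lower value in the IP. Of 12 other CXC, CX3C and XC chemokines, 5 were in the table and 0 passed the minimum. CX3CL1, the membrane-bound fractalkine, had 2 and 3 reads in the vehicle and lactate inputs but 9 and 18 in the IP libraries, with 2 vehicle peaks and 1 lactate peak. CXCL16, also membrane-bound, had 25 and 11 input reads and 20 and 8 IP reads. By FPKM it was nearly level in vehicle cells (0.508 in the input and 0.526 in the IP) but lower in the lactate IP (0.189 against 0.352). Receptors were near 0, with 7 of 22 in the table, a summed FPKM of 0.0217 to 0.326 across libraries and none past the minimum. CXCR4 had 1 read in all, in the lactate IP.

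Values of the pathway lists are log2 ratios of FPKM + 1 as deposited, to be read against the median gene. A gene enters with FPKM of at least 1 in either library, so it can pass through the IP alone or the input alone. List medians and counts, like those of all genes, rest in part on this minimum. Scaling by median ratios moves that median from 0.44 to 0.24 in vehicle cells and from −0.10 to 0.10 in lactate cells, where equal totals move it to 0.35. Among 14 measured genes of IL-1, TNF and Toll-like receptor signalling, 7 were at least 2-fold higher in the vehicle IP and 1 lower, with a median of 1.00, and in lactate cells 2 of 9 were higher and 1 lower (median 0.82). Of the higher genes, TNFRSF1B, TAB1, TRADD, TRAF2 and MAPKAPK2 passed the minimum in vehicle cells through the IP alone, as TNFRSF1B did in lactate cells. The kinase IRAK1 was highest in both (2.56 and 2.03) and the kinase MAP3K7 lowest (−1.11 and −1.05). Among 13 NF-κB subunits, kinases and inhibitors, 5 were higher and 1 lower in vehicle cells (median 0.86), and among 12 in lactate cells 4 and 1 (median 0.40). Of the higher ones, TNIP1 and NFKBIE passed in lactate cells through the IP alone. RELA, an NF-κB subunit with a transactivation domain, was at 1.99 and 1.01, and BIRC3, a ubiquitin ligase that NF-κB itself induces, was the 1 lower gene at −1.31 and −1.48. Over all genes, 27.6% were at least 2-fold higher in the vehicle IP and 16% in the lactate IP.

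Of 11 other genes that NF-κB induces, 3 were higher and 1 lower in the vehicle IP (median 0.77), and of 7 in the lactate IP 1 and 1 (median 0.54). GCH1, the first enzyme of tetrahydrobiopterin synthesis, was the lower gene in both, with 76 and 35 input reads against 2 and 1 IP reads. ICAM1, an adhesion molecule, was at 0.77 in vehicle cells and under the minimum in lactate cells, and PLAU, the urokinase protease, at 0.23 and 0.54. Among 12 other cytokines and growth factors 1 was higher and 0 lower in vehicle cells (median 0.35), VEGFB at 2.49 and TGFB2 lowest at −0.99. In lactate cells 1 of 9 was higher and 1 lower (median 0.19), VEGFB at 1.99 and BMP4 at −1.33.

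Of the factors that bind AU-rich elements or degrade messages, 4 of 20 were at least 2-fold lower and 4 higher in the vehicle IP (median −0.24), and 6 of 18 were lower and 2 higher in the lactate IP (median −0.50). Over all genes 15.3% and 23.3% were lower. The deadenylase subunit CNOT7 was lowest in vehicle cells (−1.71) and the RNA-binding protein YBX1 in lactate cells (−1.42). ZFP36, the decay factor tristetraprolin, was at −1.40 in vehicle cells (282 input and 74 IP reads) and −0.56 in lactate cells (175 and 157 reads). ELAVL1, the stabilising protein HuR, was at −0.98 and −1.10.

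**Figure D4:**
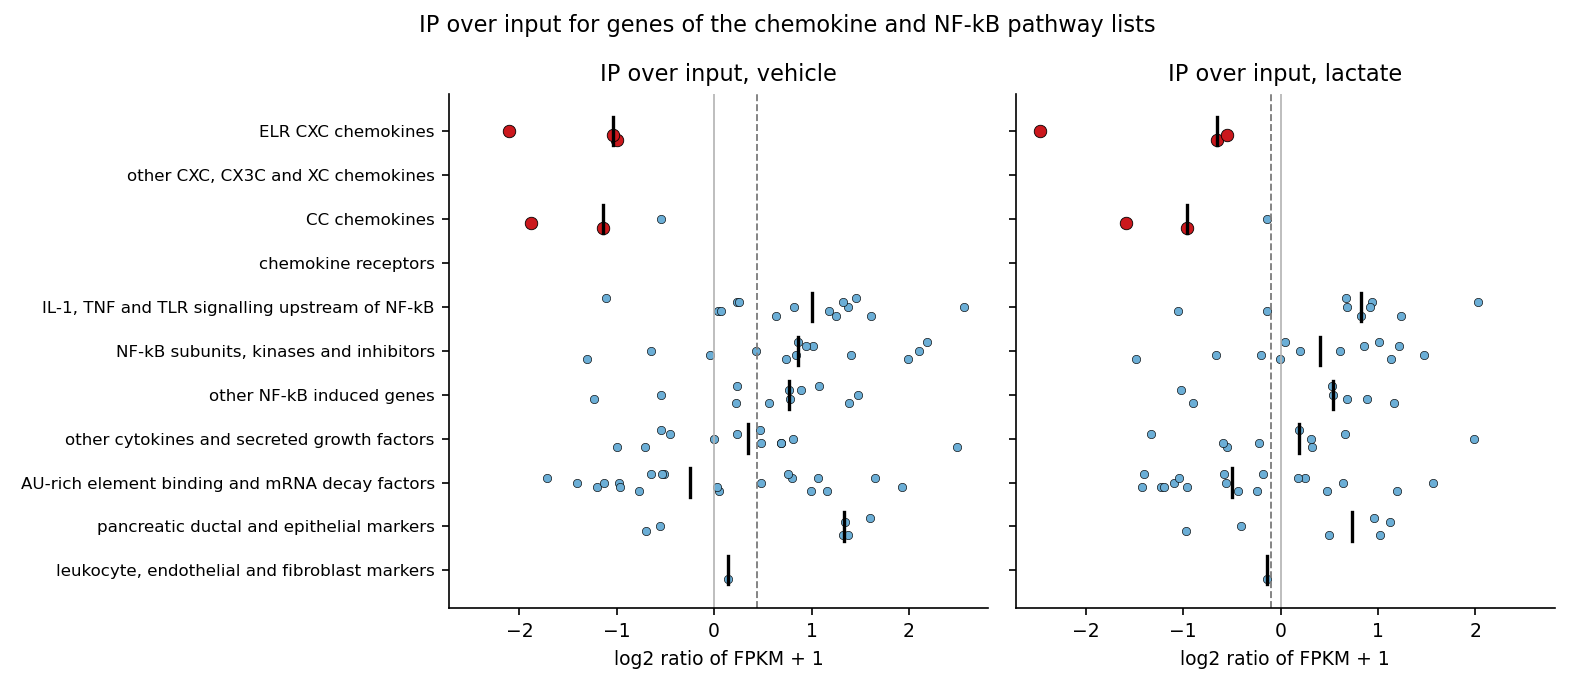
Log2 ratio of FPKM + 1, IP over input, for every gene of the pathway and marker lists that passed the minimum of FPKM 1, in vehicle cells on the left and lactate cells on the right; red points are the chemokines followed here, black bars are list medians, and the dashed line is the median of all genes (0.44 and −0.10). On FPKM as deposited the chemokine rows lie left of 0. All their points but CCL5 are members picked for low IP values, so that place describes the choice. The medians of the 3 signalling and NF-κB rows lie right of the dashed line, and nothing is read from the contrast.

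In the inputs, 0 genes of the signalling, NF-κB, induced-gene, cytokine and decay-factor lists were at least 2-fold higher or lower with lactate, against 6.46% of all genes lower and 1.76% higher. Of 5 epithelial markers 2, KRT18 (−1.34) and KRT8 (−1.20), were at least 2-fold lower. The list medians were −0.45 over 6 signalling genes, −0.36 over 12 NF-κB genes, −0.18 over 8 induced genes, −0.35 over 10 cytokines and −0.33 over 18 decay factors, against −0.43 for all genes. Within the NF-κB list TNIP2 was highest at 0.43 and COMMD1 lowest at −0.92.

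All 8 ductal and epithelial markers were above 0 in every library, with a summed FPKM of 156 in the input and 386 in the IP of vehicle cells, and 64.3 and 129 in lactate cells. Most of it came from KRT18 (116 in the vehicle input) and KRT8 (28.9), while CDH1 had 13 and 5 input reads and KRT7 26 and 3. Of 17 markers of leukocytes, endothelium and fibroblasts, which also make chemokines, 9 were in the table. Their summed FPKM was 1.36 to 2.31 and came mostly from COL1A1 (1.31 to 2.18). The leukocyte marker PTPRC was at 0 in both inputs.

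The messages closest in pattern were found by the distance between log2(FPKM + 1) values, centred on their own mean over the 4 libraries, among 7291 protein-coding genes with at least 20 reads in each input. For CXCL8 the nearest was CCN1, a secreted matrix protein, at a distance of 0.15, followed by TRPC1 (0.26), MMD (0.35), HSD17B11 (0.36) and C12orf75 (0.39). CCN1 had FPKM 54.5 in input RNA and 10.9 in IP RNA of vehicle cells, and 74.8 and 11.4 in lactate cells, so its likeness to CXCL8 holds on this scale, not in having 0 IP reads. For CCL20 the nearest were PIGK (0.08), GMFB (0.08), KIF20A (0.08), BET1 (0.10) and BBS10 (0.12). The nearest to CXCL1 were SUCLA2 (0.05), C21orf91 (0.05), MTERF1 (0.06), CDK2 (0.07) and SKP1 (0.10), and to CCL2 MTFR2 (0.05), SNX10 (0.06), CA13 (0.08), C5orf22 (0.08) and GCH1 (0.08). None of these 4 was among the 5 nearest of another, and CXCL2 and CXCL3, under the minimum of 20 reads, were not compared. The limit of scale is not particular to CCN1. In the vehicle input and IP, PIGK had 792 and 117 reads against 80 and 1 for CCL20. GCH1 had 76 and 2 against 941 and 316 for CCL2. The likeness spans 4 libraries only and is a description.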

How the data were processed

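The members and gene lists were chosen with earlier results of these data known. RNA was sequenced from 4 libraries. GRCh38, HISAT2 (2.1.0), MACS2 (2.2.7.1), fastp (0.20.1) and HOMER (4.11.1) are named, with no role, in the submitters' processing notes. How reads were counted, with what strand setting and gene models, has no stated source here. The authors deposited 1 table of FPKM per gene. Per the file headers, each deposited peak carries fold enrichment (a ratio), the p-value or q-value, or the −log10 of either. The deposited comparison of IP libraries gives M and A (log2) and a normalized read density (signal) with an unstated normalization.

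Reads were recovered as the smallest whole numbers that match the 4 values of a gene, given its length and the library totals; 99.98% of 72387 values above 0 came out whole within 1e-06 reads with a length of at most 100000 bp, and MT-RNR1 came out at 954 bp. Recovery was tested on simulated data. Intervals at 95% are exact (Clopper-Pearson for ratios, Poisson for levels) except the normal ones for differences of log ratios. Genes with FPKM of at least 1 in a compared library were counted at a log2 ratio of FPKM + 1 of at least 1, or at most −1. Named were the 6 members, extremes of each list and the 5 nearest genes. CX3CL1, CXCL16, CCL7, CCL28, CXCL5, CXCR4, RELA, ICAM1, PLAU, ZFP36, ELAVL1, PTPRC, C7orf57, ZNF367 and RNFT1 were chosen after their values were seen. So were TNFRSF1B, TAB1, TRADD, TRAF2, MAPKAPK2 and TNIP1. Python 3.11.15, SciPy 1.17.1 and Biopython 1.88 were used.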

Additional observations from a re-analysis of the deposited data

How the results depend on the processing

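Each comparison was repeated with pseudocounts 0.1 and 5, 2 other scalings and no filter on low values. With 1 library per group no library could be left out. Each IP was set against the input of its own treatment, but no paired test was possible because each group held 1 library. The filter cannot move a gene's own ratio. Over the other 4 alternatives and 5 comparisons the 6 members gave 120 values. Of these, 95 stayed within wide bounds around the value reported, 25 moved beyond them and 0 of those past 2-fold changed sign. The bounds join the far ends of the separate 95% counting intervals of each library, so they are wider than the intervals given above for ratios. With median ratios the CCL2 difference of enrichments (0.64) stayed within them but lay outside its interval on plain reads (−0.09 to 0.45). Some values not past 2-fold turned sign with scaling, among them the inputs of CXCL1, CXCL2, CCL2 and CCL20. The count of members at least 2-fold lower in the IP was 4 in vehicle cells and 0 with pseudocount 5, and in lactate cells 2, against 5 with pseudocount 0.1 and 0 with pseudocount 5. For the difference of enrichments it went from 0 to 1 (CXCL3) with pseudocount 0.1. That setting also gave 1 member at least 2-fold higher, against 0, for the difference of enrichments (CXCL2, 1.5), between IP libraries (CXCL2, 1.49) and between inputs (CXCL3, 1.18). Of the 2 CCL20 peaks, 0 were left at a q of at most 0.05.

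Over all genes, the share of higher among genes past 2-fold was 64.3% for the vehicle IP over input (50.3% with median ratios), 40.6% for the lactate IP over input (53.6%, and 65.3% with equal non-mitochondrial totals), 21.4% between inputs (56.5% and 58.2%), 5.58% between IP libraries (54.9% and 51.6%) and 24.1% for the difference of enrichments (54.3% and 53.2%). Counts of genes past 2-fold that moved by more than 1.5 times were as follows. In the vehicle IP over input, 2509 higher became 3786 with pseudocount 0.1, 556 with 5 and 1489 with median ratios, and 1392 lower became 569 with 5. In the lactate IP over input, 1145 higher became 2031 with 0.1, 110 with 5, 1781 with median ratios and 2315 with equal totals, and 1673 lower became 593 with 5. Between inputs, 437 lower became 1134, 67, 128 and 117 in the same order, and 119 higher became 9 with 5. Between IP libraries, 2317 lower became 4552, 502, 229 and 290, and 137 higher became 5 with 5, 279 with median ratios and 309 with equal totals. For the difference of enrichments, 903 lower became 2100, 99, 354 and 389, and 287 higher became 598 with 0.1, 18 with 5 and 443 with equal totals. Reads of CXCL3, CXCL2 and CCL20 in the IP libraries, 0 to 7, limit what can be said of them.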
